A study of Saccharomyces cerevisiae with 7 samples.

Results

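Low galactose was compared with no added galactose in Saccharomyces cerevisiae CEN.PK113-7D, a haploid laboratory strain, by setting 2 arrays of cultures fed 7.5 g/l glucose plus 0.23 g/l galactose against 3 arrays of control cultures fed 7.5 g/l glucose alone. These are 5 of the 7 arrays of the series. The other 2 came from cultures fed the same glucose and, in place of galactose, galacturonic acid at 10 g/l, a sugar acid that pectin is built from. All cultures, control cultures included, were aerobic glucose-limited chemostats, in which the feed rate of the limiting glucose sets the growth rate, run at 30 °C and pH 3.5 with a dilution rate of 0.1 per h. One label field of the galactose arrays names galacturonic acid at 0.23 g/l, whereas their title, description and treatment name galactose, which was followed. The galactose arrays also carry sample codes of another series than the other 5 arrays, so the code series and the treatment cannot be told apart. Nothing in the labels says how the cultures relate to each other, so p-values measure only the spread between these arrays, which may in part be technical.

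All genes with a probe set of their own were taken. A gene with several probe sets was represented by the one with the highest mean level, and a gene was tested if it read above an intensity of 12, used as a floor, on at least 2 arrays. Of 5656 genes, 5220 were tested and 436 were not. Intensities are relative to the whole array, so fewer cells with a transcript and less of it per cell cannot be told apart. A difference is the galactose mean minus the control mean of log2 intensity, given with the standard error (SE) of the fit.

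Yeast takes up galactose through the permease encoded by GAL2 and converts it to glucose 1-phosphate by the Leloir pathway, whose enzymes are galactokinase (GAL1), the uridylyltransferase (GAL7) and the epimerase with mutarotase (GAL10). The activator Gal4 binds upstream of these genes. Gal80 holds Gal4 inactive until Gal3, having bound galactose and ATP, sequesters Gal80. Glucose represses the same genes through Mig1 and the Cyc8-Tup1 corepressor, and a glucose-limited chemostat keeps residual glucose low.

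The galactose arrays stood apart from the rest in their control probe sets, which read the 5′ end, the middle and the 3′ end of a transcript. Galactose arrays 1 and 2 had 3′/5′ intensity ratios of 19.8 and 306 for ACT1 (actin), against 1.07 to 1.34 on the other 5 arrays. The ratios for SPT15, which encodes the TATA-binding protein, were 2.76 and 124, against 1.66 to 2.75 on the others. The 5′ readings on galactose array 2 were 10.5 and 4.1, below the floor, so the sizes of its ratios are uncertain. At the middle of ACT1 the galactose arrays read 1167.2 and 30.9, against 2200.8 to 2759.4 on the other 5, while at the 3′ end they read 2198.8 and 3218.0, against 2690.1 to 3558.6. The bacterial BioB control probe sets read 3.3 to 5.8 on galactose array 1 and 18.7 to 18.9 on galactose array 2, against 26.8 to 60.1 elsewhere. The BioC and CreX controls went the other way on galactose array 2, with BioC at 219.2 and 262.3 against 30.1 to 45.7 on the 5 arrays without galactose and CreX at 3550.1 and 4189.6 against 703.9 to 1687.0, while galactose array 1 read 51.6 and 60.0 for BioC and 806.9 and 1072.6 for CreX. Pearson's r of log2 intensity over the genes tested, which are not independent, was 0.818 between the galactose arrays and 0.951 to 0.973 between control arrays.

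**Figure D1:**
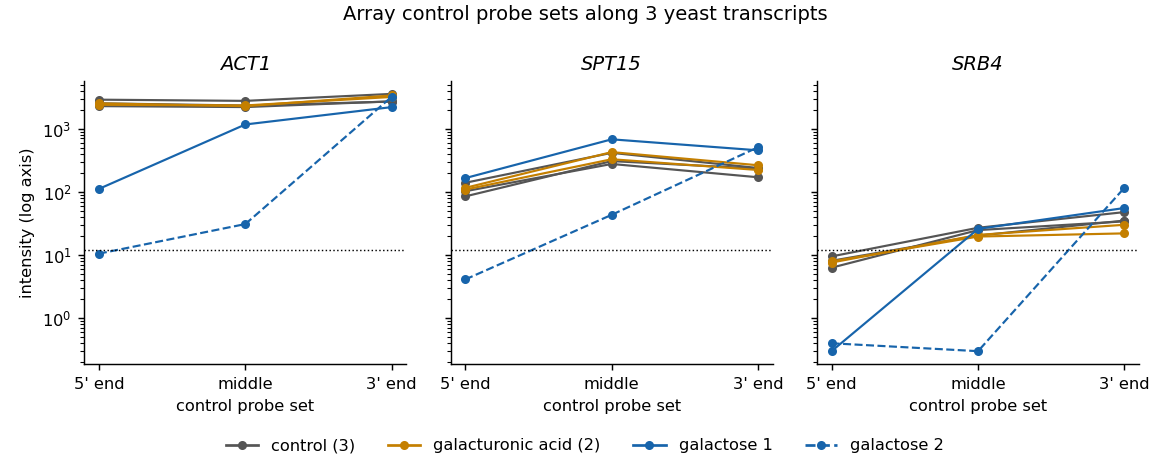
Intensity (log axis) of the 5′, middle and 3′ control probe sets of ACT1, SPT15 and SRB4 (a Mediator subunit) on each of the 7 arrays; the dotted line is the floor of 12. The galactose arrays read the 3′ end of ACT1 at 2198.8 and 3218.0 and its 5′ end at 111.3 and 10.5.

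Among genes with a limma adjusted p under 0.05, the galactose permease and the 3 Leloir pathway genes had the 4 largest rises. GAL2 (YLR081W) read 8.6, 7.0 and 7.9 on the control arrays and 1126.6 and 1069.6 on the galactose arrays. Each control array lay under the floor, so its fold change is a lower bound: at least 91.5-fold higher, a difference of 6.52 ± 0.29 (limma, adjusted p = 5.21e-05). GAL10 (YBR019C) read 3.8, 2.6 and 5.0 in control and 399.6 and 810.4 with galactose, at least 47.4-fold higher (5.57 ± 0.38, limma adjusted p = 0.000537). GAL7 (YBR018C) read 4.8, 4.7 and 2.7 in control and 340.3 and 286.8 with galactose, at least 26.0-fold higher (4.70 ± 0.30, limma adjusted p = 0.000508). GAL1 (YBR020W) read 0.5, 2.4 and 3.5 in control and 154.9 and 178.4 with galactose, at least 13.9-fold higher (3.79 ± 0.30, limma adjusted p = 0.000606). In all 4 genes every galactose reading lay above every control reading and above the floor. The 2 galactose arrays were close for GAL2, GAL7 and GAL1, and differed most for GAL10.

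**Figure D2:**
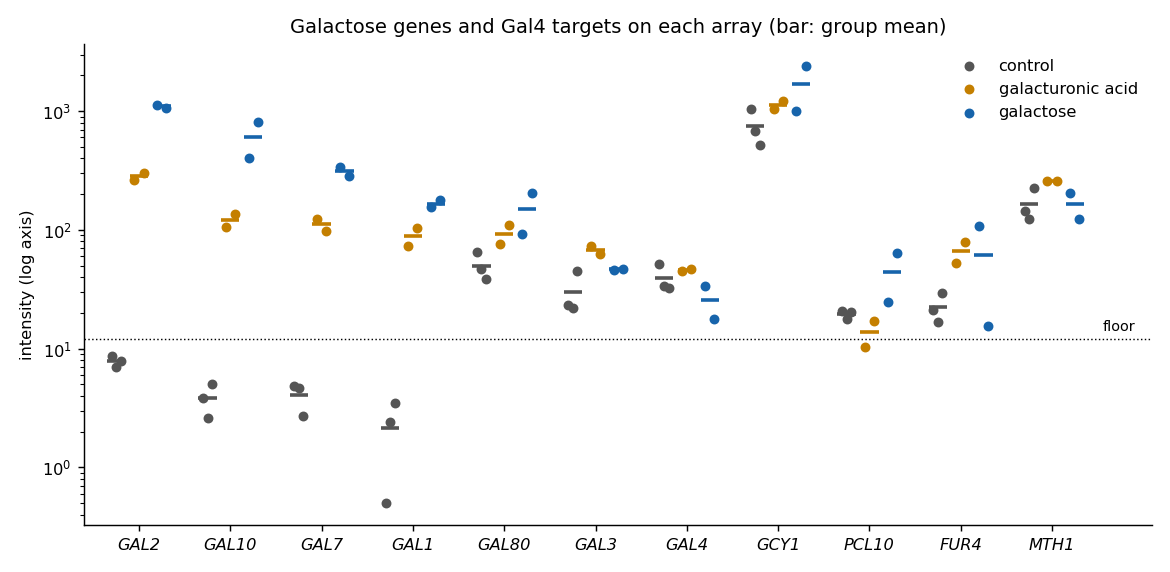
Intensity (log axis) of the galactose structural genes, the regulators and the other reported Gal4 targets, with 1 point per array, a bar at each group mean and the floor of 12 dotted. GAL2, GAL10, GAL7 and GAL1 lie under the floor on all 3 control arrays and at 154.9 or above on both galactose arrays, while GAL80, GAL3 and the genes to their right show smaller differences or overlapping groups.

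These 4 rises were found on each galactose array and in each alternative fit described here. Their smallest differences over 18 alternative fits, which changed the scaling, the floor, the filter or the spread or left out each array in turn, were 4.46 for GAL2, 3.51 for GAL10, 2.64 for GAL7 and 1.73 for GAL1, and each stayed past the threshold in every one of them, with largest adjusted p of 0.00433, 0.0143, 0.0125 and 0.0187 (limma). The smallest differences include a fit with a floor of 50, which by itself shrinks a difference whose control side is below the floor.

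The galacturonic acid arrays lay between the control and the galactose arrays for all 4 genes, with readings of 263.9 and 299.5 for GAL2, 104.9 and 136.9 for GAL10, 124.1 and 98.0 for GAL7 and 73.8 and 104.7 for GAL1. The direct contrast of galactose minus galacturonic acid, in the same fit, called 686 of 5220 genes (13.1%). It gave 1.97 ± 0.32 for GAL2 (limma adjusted p = 0.0149), 2.25 ± 0.42 for GAL10 (limma adjusted p = 0.0198) and 1.502 ± 0.33 for GAL7 (limma adjusted p = 0.0293). For GAL1 it gave 0.92 ± 0.33, which did not pass (limma adjusted p = 0.0894). Without galacturonic acid replicate 1 the adjusted p was 0.166 for GAL2, 0.208 for GAL10 and 0.19 for GAL7, and without replicate 2 it was 0.109, 0.115 and 0.156, so none of the 3 held when either galacturonic acid array was left out. With array weights it was 0.0574 for GAL2 and GAL10 and 0.121 for GAL7, and none was called. GAL7 also missed the threshold without control replicate 1, 2 or 3 (0.0516, 0.0727 and 0.0681), and GAL10 without control replicate 2 or 3 (0.0528 and 0.0534). The doses of the 2 additions differ, 0.23 against 10 g/l, so the values are set side by side and say nothing of potency.

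None of the 10 genes of the Gal4 switch and its regulators was called. The inhibitor gene GAL80 (YML051W) read 64.6, 46.6 and 38.5 in control and 91.5 and 206.3 with galactose. Both galactose readings lay above all control readings, but the difference of 1.49 ± 0.44 missed the threshold (limma adjusted p = 0.0668). Without galactose replicate 1 it was 2.08 and passed. The sensor gene GAL3 (YDR009W) read 23.3, 21.8 and 44.8 in control and 46.0 and 46.8 with galactose, which just cleared the highest control array (0.71 ± 0.38, limma adjusted p = 0.213). The activator gene GAL4 (YPL248C) read 51.9, 33.7 and 32.6 in control and 33.9 and 17.8 with galactose, so the groups overlapped (-0.65, limma adjusted p = 0.246). It was called lower without galactose replicate 1, at -1.11.

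The remaining regulators overlapped with control or differed between the galactose arrays. The repressor gene MIG1 read 79.2, 84.3 and 97.5 in control and 84.7 and 53.1 with galactose. The corepressor genes CYC8 and TUP1 read 132.7 and 183.1 on galactose array 1 but 62.0 and 47.1 on array 2, against 95.2 to 151.9 and 157.0 to 193.5 in control, so the arrays lay on opposite sides of the control mean for both. REG1, a regulatory subunit of the Glc7 phosphatase, read 108.7 and 42.3 against 84.0 to 132.8. GAL11, a Mediator subunit, read 170.3 and 90.6 against 181.5 to 239.8, below every control array, with a difference of -0.72 (limma adjusted p = 0.182). LAP3, an aminopeptidase also known as Gal6, read 275.0 and 173.8 against 273.4 to 505.0, and SWI5, a cell cycle transcription factor, 70.9 and 47.7 against 37.5 to 63.0.

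Of 4 further genes reported as Gal4 targets, none was called. GCY1, a glycerol dehydrogenase gene, read 1043.1, 683.7 and 521.5 in control and 1008.0 and 2407.8 with galactose (1.12 ± 0.44, limma adjusted p = 0.118). PCL10, a cyclin of the Pho85 kinase, read 20.8, 17.6 and 20.5 in control and 24.5 and 63.6 with galactose (1.01 ± 0.40, limma adjusted p = 0.114). Only PCL10 had both galactose arrays above all control arrays. The uracil permease gene FUR4 read 106.8 on galactose array 1 and 15.6 on array 2, against 16.7 to 29.4 in control, so the arrays went opposite ways. MTH1, a corepressor of hexose transporter genes, read 205.2 and 123.7 against 123.1 to 224.5, with a difference of 0.00 (limma adjusted p = 1).

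No gene of the hexose transporters and glucose sensors was called. Of 19 listed genes 12 had a probe set of their own and 10 were tested. HXT6 and HXT7, high-affinity carriers whose near-identical sequences make their separate readings uncertain, were the brightest. HXT6 read 4092.7, 3211.9 and 3903.6 in control and 2767.3 and 2247.1 with galactose (-0.58, limma adjusted p = 0.176), and HXT7 read 3018.7, 3555.4 and 3804.9 in control and 2091.9 and 2767.2 with galactose (-0.52, limma adjusted p = 0.222). HXT5, a carrier of slow-growing cells, read 1558.4, 677.8 and 1121.7 in control and 532.6 and 468.9 with galactose (-1.08, limma adjusted p = 0.189). These 3 genes lay below every control array on both galactose arrays and did not pass.

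The other transporter genes had overlapping groups or readings near the floor. HXT2, a carrier induced at low glucose, read 1316.3 and 475.5 against 705.8 to 1405.9 in control. HXT3 read 226.2 and 160.5 against 103.1 to 218.9. HXT4 was the least alike on the galactose arrays, at 196.5 and 15.8 against 24.1 to 80.8. HXT1, the low-affinity carrier of high glucose, read 7.0 and 19.1 against 9.1 to 16.4, and HXT8 read 5.3 and 1.5 against 6.4 to 26.3. The sensor genes SNF3 and RGT2 read 35.3 and 43.9 against 24.0 to 36.0, and 82.7 and 54.9 against 71.1 to 95.3.

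Over all genes, 473 of 5220 (9.06%) passed the threshold, and the same number, 9.06%, had in addition both galactose arrays beyond all 3 control arrays. Of these 248 were higher (4.75%) and 225 lower (4.31%). The split moved with the scaling: 127 were higher and 273 lower after quantile normalisation, and 100 and 323 after scaling to the 75th percentile, in which the median difference of all genes was 0.13 and 0.04 in place of 0.22. None of the 79 called genes in the text changed direction under either scaling, but some rises were not called: RRP7, INO4 and GZF3 under both, GPA1 after quantile normalisation, and RFA3, CIT2 and FUS1 after scaling to the 75th percentile. Of the falls, ADH1, TDH3, PDC1, ATP3, HSP60, HSP26, PNC1, ERG3, ERG25 and ERG2 were not called after quantile normalisation. An unadjusted p under 0.05 was reached by 1813 genes. The median fold change was 2.94 among the higher calls and 4.03 among the lower calls.

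The direction of the calls went with the level in control. Among the 1305 dimmest genes, with control levels up to 38.7, 155 were called higher and 27 lower. Readings under the floor were raised to it, so these genes could fall only a short way, while their rises had no such limit. A gene under the floor in control was also tested only if other arrays read above the floor. The excess of rises among dim genes therefore cannot be told apart from the effect of the floor and the filter. Among the 1305 brightest, above 223.8, 4 were called higher and 97 lower. The shortest genes, with coding sequences of at most 499 bases, shifted from control by a median of 0.20 on galactose array 1 and 0.69 on array 2, against -0.07 to 0.10 in the longer classes on array 2. Of those 618 short genes 7.28% were called higher and 4.37% lower. With the trend with coding length removed from each array, 566 genes were called, 144 higher and 422 lower, and 364 of the 473 calls remained. The part of the 3′/5′ ratios in the calls was not tested.

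The 2 galactose arrays shared part of their shifts. Both lay over 1 log2 unit above the control mean for 328 genes and over 1 below it for 250, while 61 and 7 genes were shifted by over 1 in opposite directions. A shift over 1 on galactose array 1 alone was found in 443 genes and on array 2 alone in 1677. Beyond 2 log2 units, both arrays lay above in 7 genes and below in 49. Since both arrays are set against the same control mean, part of that agreement comes from the shared controls.

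**Figure D3:**
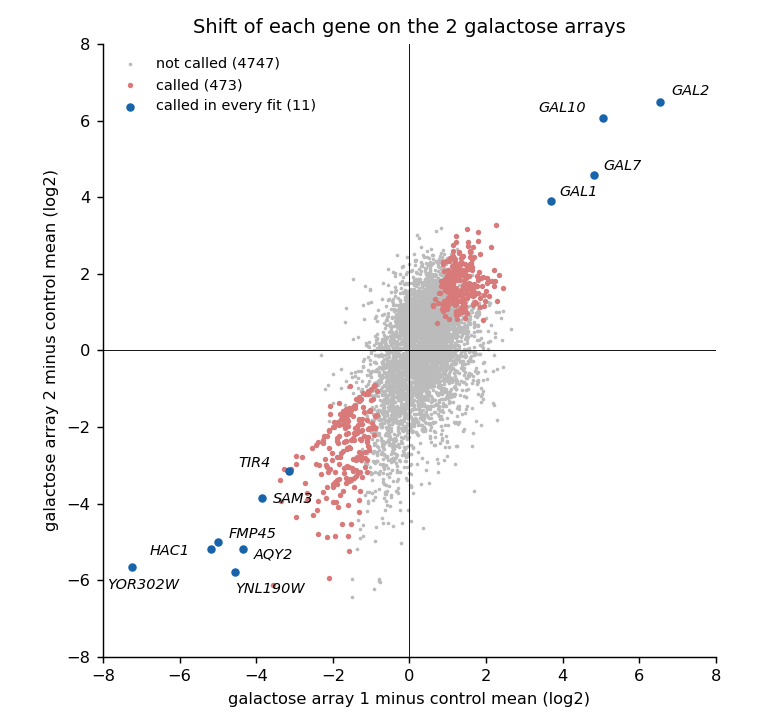
Shift of each of 5220 genes from the control mean on galactose array 1 (x axis, log2) and galactose array 2 (y axis, log2), with the 473 called genes and the 11 genes called in all 18 alternative fits marked. The 4 GAL genes stand alone at the upper right, and 7 genes called in every fit lie at the lower left.

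The count rests on the pooled spread of all 7 arrays, which differ in precision, with a median SD between arrays of 0.52 on the log2 scale for galactose, 0.30 for control and 0.17 for galacturonic acid. With a weight estimated for each array, galactose arrays had a weight of 0.263 each and 16 genes were called, and 38 were called when only the control and galactose arrays were fitted. Without control replicate 1, 2 or 3 there were 23, 24 and 21 calls, without galacturonic acid replicate 1 or 2 there were 21 and 30, and without galactose replicate 1 or 2 there were 2145 and 191. Of the 79 called genes in the text, 12 were also called with array weights, 76 without galactose replicate 1 and 38 without galactose replicate 2.

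Beside the 4 GAL genes, 7 genes were called in all 18 alternative fits, each of them lower with galactose. Those fits do not include array weights without the galacturonic acid arrays, an alternative chosen after seeing the data, in which YOR302W and YNL190W were called and HAC1, FMP45, AQY2, SAM3 and TIR4 were not (limma adjusted p = 0.0534 to 0.144). YOR302W is a short upstream reading frame of 78 bases in the leader of the arginine synthesis gene CPA1. It read 2296.1, 1594.5 and 1606.1 in control and 9.3 and 35.6 with galactose (at least 87.3-fold lower, limma adjusted p = 0.000568). The probe set of CPA1 itself read 2122.6, 1552.3 and 1896.5 in control and 1101.8 and 1886.5 with galactose (-0.35, limma adjusted p = 0.482). The leader frame, at the 5′ end of that transcript, was thus near or under the floor on both galactose arrays while the coding region was not.

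HAC1, the transcription factor of the unfolded protein response, read 544.1, 258.2 and 599.0 in control and 1.7 and 1.0 with galactose, at least 36.5-fold lower (limma adjusted p = 0.000606). It read 1989.8 and 1380.0 with galacturonic acid, above control. Its probe sets did not move by the same amount: one read 188.2 to 283.5 in control and 110.0 and 19.5 with galactose. SAM3, the S-adenosylmethionine permease, read 152.0, 184.3 and 186.5 in control and 8.5 and 1.0 with galactose, at least 14.5-fold lower (limma adjusted p = 0.000606). Another probe set of SAM3 read 42.6 to 54.9 in control and 48.8 and 81.0 with galactose, so the probe sets of this gene disagree in direction.

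The other 4 have 1 probe set each. FMP45, a membrane protein with a part in spore wall formation, read 614.8, 299.7 and 306.8 in control and 4.8 and 4.0 with galactose, at least 32.0-fold lower. AQY2, a water channel, read 546.2, 482.5 and 323.6 in control and 21.6 and 2.9 with galactose, whereas both galacturonic acid arrays lay above control, at 1248.2 and 1239.4. YNL190W read 1370.1, 1201.7 and 1140.2 in control and 52.9 and 22.5 with galactose, and TIR4, a cell wall mannoprotein of the hypoxic group, 93.3, 110.2 and 118.0 against 10.3 and 10.1. Limma's adjusted p was 0.000606 for FMP45, AQY2 and YNL190W and 0.00183 for TIR4.

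Probe sets of one gene often disagreed on the galactose arrays. For 253 genes with several tested probe sets, the distance between the highest and the lowest shift exceeded 2 log2 units in 60 genes on galactose array 1 and in 131 on array 2, against 0 to 6 on the other 5 arrays. FAS1, a subunit of fatty acid synthase chosen after its values were seen, has a probe set that read 1568.2, 998.0 and 834.2 in control and 989.0 and 2028.6 with galactose. A second one of FAS1 read 1150.6, 519.1 and 902.3 in control and 4.4 and 2.2 with galactose. Of 1924 probe sets above 100 on all 5 control and galacturonic acid arrays, 14 were at or under the floor on both galactose arrays. Of those 14 probe sets, 13 belong to genes with several probe sets, and some of the 13 share a gene. For each of the 13, another probe set of its gene read above the floor on both galactose arrays. Of the called genes, 7 higher and 17 lower ones have several tested probe sets, and in 4 and 9 of them all probe sets moved in the direction of the call.

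**Figure D4:**
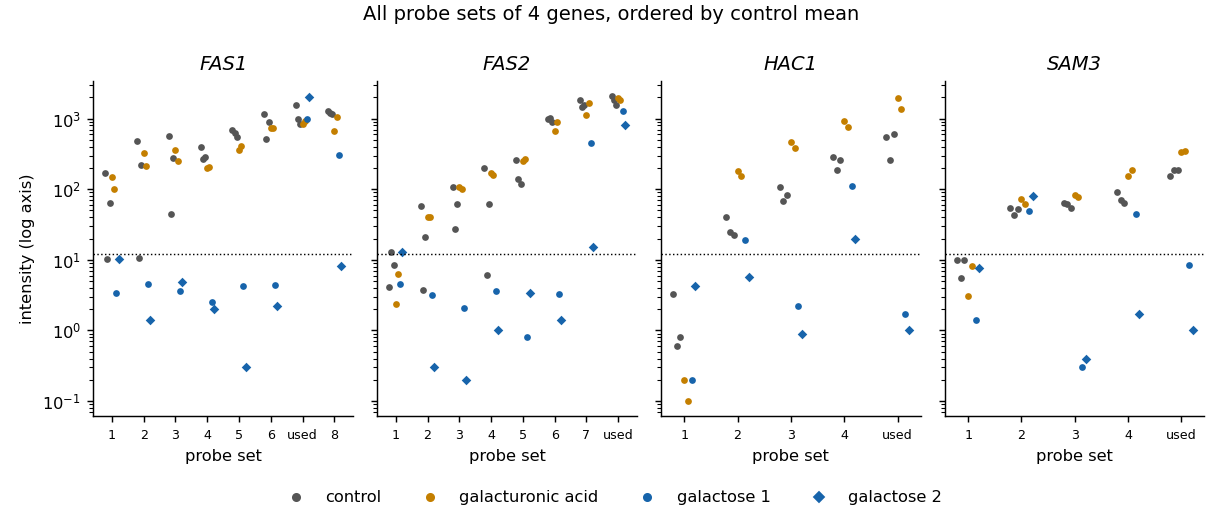
Intensity (log axis) of every probe set of FAS1, FAS2 (the other fatty acid synthase subunit), HAC1 and SAM3 on the 7 arrays, ordered by control mean, with the probe set used for the gene marked and the floor dotted. Several FAS1 and FAS2 probe sets fall under the floor on both galactose arrays while the probe set used reads 821.0 or above.

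Among called genes, the 8 largest rises after the GAL genes were of genes with low control levels, all but RFA3 under 60. PEX19, needed to place proteins in the peroxisome membrane, read 23.9, 28.6 and 27.0 in control and 125.6 and 254.1 with galactose, 6.76-fold higher (limma adjusted p = 0.00972). SSF1, a ribosome assembly factor, read 36.4, 47.7 and 53.2 in control and 196.9 and 294.1 with galactose, 5.32-fold higher (limma adjusted p = 0.0131). SNT309, a splicing factor, was 5.41-fold higher, HNT3, a DNA repair enzyme, 5.03-fold, and RFA3, a subunit of the single-strand DNA binding complex RPA, 5.01-fold. PSF3, a subunit of the replication complex GINS, was 4.55-fold higher, YML108W 4.54-fold and RRP7, an rRNA processing factor, 4.52-fold, with limma adjusted p of 0.014 to 0.0411 in these 6. Galactose array 2 read higher than array 1 in all 8. None of the 8 was called with array weights, and SNT309, RFA3, PSF3 and RRP7 were not called without galactose replicate 2.

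Among called genes, the largest falls beside those called in every fit were of genes that read 129.5 or above on every control array. Genes near the floor in control cannot show falls of this size. PMA2, the minor form of the plasma membrane proton pump, read 642.9, 887.3 and 1004.4 in control and 69.9 and 5.8 with galactose. It was at least 28.7-fold lower (limma adjusted p = 0.013), and it was also low with galacturonic acid, at 40.9 and 73.0. Its close paralog PMA1 makes these readings uncertain. PUB1, which binds poly(A) and poly(U) RNA, read 627.5, 836.9 and 753.1 in control and 170.6 and 4.6 with galactose. It was at least 16.2-fold lower (limma adjusted p = 0.0365). ZWF1, glucose-6-phosphate dehydrogenase, read 1029.6, 575.5 and 672.0 in control and 141.4 and 26.7 with galactose, a difference of -3.58 (limma adjusted p = 0.0206). PUT4, the proline permease, was 11.4-fold lower, TOS6, a cell wall protein, 12.6-fold, and YFR018C at least 12.5-fold, with limma adjusted p of 0.00747 to 0.0275. Galactose array 2 read lower than array 1 in all 6. PMA2 was the only one of the 6 also called with array weights, and TOS6 was not called without galactose replicate 2.

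None of the genes that take glucose 1-phosphate onward was called higher. Of 9 tested, 2 were called lower (22.2% against 4.31% of all genes), with a median difference of -0.86 against 0.22 for all genes. PGM2, the main phosphoglucomutase, which links the Leloir pathway to glycolysis, read 813.6, 712.0 and 451.5 in control and 370.8 and 407.0 with galactose (-0.72, limma adjusted p = 0.16). UGP1, which makes UDP-glucose, read 506.8, 842.9 and 603.9 in control and 434.6 and 282.6 with galactose (-0.86, limma adjusted p = 0.119). The 2 called were PGI1, phosphoglucose isomerase, 5.70-fold lower, and TPS1, trehalose-6-phosphate synthase, which read 1037.9, 768.8 and 783.5 in control and 326.1 and 357.7 with galactose, 2.50-fold lower. PGM2 and UGP1 were named after their values were seen.

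In glycolysis and ethanol formation 4 of 23 tested genes were called lower and 0 higher, a share of 17.4% against 4.31% of all genes. They were PGI1, PDC1 (pyruvate decarboxylase), ADH1 (alcohol dehydrogenase) and TDH3 (glyceraldehyde-3-phosphate dehydrogenase). ADH1 read 4562.0, 3039.3 and 3631.8 in control and 1468.5 and 399.2 with galactose, 4.82-fold lower (limma adjusted p = 0.0365). TDH3 read 7083.4, 5246.6 and 8163.0 in control and 3198.0 and 1399.5 with galactose, 3.18-fold lower (limma adjusted p = 0.046), and it has close paralogs. The list's median shift was -0.64 on galactose array 1 and -1.87 on array 2. Without galactose replicate 2 no gene of the list was called, and without galactose replicate 1 there were 15 lower and 1 higher. Of the 1305 brightest genes, 97 were called lower.

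The pentose phosphate pathway had 1 higher and 4 lower calls of 13 tested, or 7.69% higher and 30.8% lower against 4.75% and 4.31% of all genes. Its lower calls were ZWF1, the lactonase paralogs SOL2 and SOL4 and the phosphogluconate dehydrogenase isoform GND2. The higher call was RKI1, ribose-5-phosphate isomerase. SOL4 read 1407.9, 971.6 and 967.4 in control and 309.0 and 233.1 with galactose, 4.09-fold lower (limma adjusted p = 0.0156), and was also low with galacturonic acid, at 328.8 and 411.2. RKI1 read 27.0, 73.4 and 37.9 in control and 230.5 and 129.6 with galactose, 4.10-fold higher (limma adjusted p = 0.0434). No gene of this list was called with array weights or with only the 5 control and galactose arrays.

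In trehalose and glycogen metabolism 2 of 15 genes were lower (13.3% against 4.31% of all genes), TPS1 and GDB1. GDB1, the glycogen debranching enzyme, read 391.2 to 562.1 in control and 191.6 and 160.5 with galactose. Both were also below control with galacturonic acid, at 373.4 and 467.2 for TPS1 and 219.0 and 203.3 for GDB1. In the respiratory chain and ATP synthase 2 of 35 were lower, a share of 5.71% near that of all genes, NDI1 (the internal NADH dehydrogenase, 8.80-fold) and ATP3 (an ATP synthase subunit, 2.40-fold). None of 17 TCA cycle genes was called, with the smallest p for ACO1, aconitase, at 1887.7 to 2133.8 in control and 1243.6 and 817.5 with galactose (-1.01, limma adjusted p = 0.062). Among 20 genes of gluconeogenesis, the glyoxylate cycle and C2 use 1 rose and 1 fell. These shares of 5.0% each are near the 4.75% higher and 4.31% lower of all genes. CIT2, peroxisomal citrate synthase, rose and YAT1, a carnitine acetyltransferase, fell. Neither was called with array weights or with only the 5 control and galactose arrays. CIT2 read 265.6, 265.1 and 231.5 in control and 594.3 and 652.8 with galactose, 2.46-fold higher (limma adjusted p = 0.0309), and 1275.3 and 1104.9 with galacturonic acid.

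In glucose signalling and repression 1 of 23 genes was lower, a share of 4.35% near the 4.31% of all genes. It was RGT1, the repressor of hexose transporter genes, at 211.1 to 232.1 in control and 90.1 and 4.4 with galactose (limma adjusted p = 0.0481). The xylitol dehydrogenase gene XYL2 (1 lower of 8, or 12.5%, in the list of maltose, sucrose and other sugars) was 3.03-fold lower. The aldose reductase gene GRE3 (1 lower of 6 aldo-keto reductases, or 16.7%) was 2.91-fold lower.

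General stress genes, targets of Msn2 and Msn4, had the most calls of any list: 0 higher and 8 lower of 34 tested, or 23.5% against 4.31% of all genes. The list's median difference was -0.88, with -1.06 on galactose array 1 and -0.84 on array 2. In 20 of the 34 both galactose arrays lay below every control array. Such separation was common: 2494 of all 5220 genes lay above or below every control array on both galactose arrays. That number takes both directions together. The share of all genes that lay below is not given here, so the 20 cannot be set against it directly. The lower calls were SSA3 (a heat shock protein of the Hsp70 family), SOL4, SOD2 (mitochondrial superoxide dismutase), RTN2 (a reticulon), GND2, GRE3, HSP26 (a small heat shock protein) and PNC1 (nicotinamidase). All of them but SOD2 also lay below every control array on both galacturonic acid arrays, so these falls were not particular to galactose. There SSA3 read 208.9 and 145.8, HSP26 1602.4 and 1932.2, PNC1 934.6 and 978.3, and SOD2 1106.7 and 1008.5. SSA3 read 1008.1, 974.6 and 1011.9 in control and 277.0 and 96.5 with galactose, 6.10-fold lower (limma adjusted p = 0.0197). HSP26 read 3964.0, 3038.8 and 3741.5 in control and 1542.2 and 1651.5 with galactose, and PNC1 2210.3, 2253.9 and 2365.7 against 1082.1 and 1092.3, with the 2 galactose arrays close together in both. HSP12, a membrane-associated stress protein, did not pass and its groups overlapped, at 3802.9 to 6009.3 in control and 2679.1 and 6430.5 with galactose. Without galactose replicate 2 the count was 5 lower, and with array weights it was 0.

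Among 16 heat shock factor targets and chaperones HSP30 and HSP60 were lower (12.5% against 4.31% of all genes). HSP30, a regulator of the proton pump, read 913.1, 1509.1 and 2260.4 in control and 322.4 and 183.2 with galactose, 6.01-fold lower (limma adjusted p = 0.0183). HSP60, the mitochondrial chaperonin, was 2.72-fold lower. Of 11 stationary phase and spore genes 3 were lower (27.3% against 4.31% of all genes): AQY2, AQY1 (a water channel) and SPS100 (a spore wall protein). SPS100 read 124.4, 288.5 and 310.7 in control and 46.4 and 17.2 with galactose, and AQY1 87.3, 145.0 and 150.9 against 33.8 and 23.3. In oxidative stress 2 of 19 were lower (10.5%), TSA2 (a peroxiredoxin, 4.03-fold) and OYE3 (an NADPH oxidoreductase, 2.66-fold). In the weak acid response 2 of 15 were lower (13.3%), HSP30 and GRE1, a hydrophilin, at 1747.3 to 2140.6 in control and 669.1 and 613.8 with galactose (limma adjusted p = 0.0224). SPS100, AQY1, TSA2, OYE3 and GRE1 were below control on the galacturonic acid arrays as well.

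In ergosterol synthesis 4 of 24 genes were lower (16.7% against 4.31% of all genes): ERG3, ERG25, ERG2 and HMG1 (HMG-CoA reductase). After quantile normalisation HMG1 was the 1 lower call left of these 4. ERG3, a C-5 sterol desaturase, read 3456.7, 4367.6 and 5287.0 in control and 1922.7 and 517.4 with galactose, 4.32-fold lower (limma adjusted p = 0.0437). ERG25, the methyl sterol oxidase, read 3436.8, 3503.9 and 3414.7 against 1601.0 and 683.2, and ERG2, the sterol isomerase, 2870.1, 2984.8 and 3374.1 against 1632.1 and 751.2. Their readings with galacturonic acid, 949.3 to 1725.6 over the 3 genes, were also below control, and no gene of this list was called without galactose replicate 2. In beta-oxidation and the peroxisome 2 of 19 were lower (10.5%), POT1 (thiolase, 4.70-fold) and TES1 (acyl-CoA thioesterase, 4.17-fold). INO4, an activator of phospholipid genes, was the 1 call among 20 genes of fatty acid and phospholipid synthesis (5.0% higher against 4.75% of all genes), at 36.6, 31.4 and 23.4 in control and 63.2 and 121.3 with galactose (2.92-fold higher, limma adjusted p = 0.0472).

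Of 14 hypoxic and anaerobic genes 3 were lower (21.4% against 4.31% of all genes), the mannoproteins TIR4, TIR3 and PAU7, and PAU7 belongs to a family of near-identical genes. PAU7 read 89.9, 319.5 and 199.3 in control and 41.2 and 19.7 with galactose. It was also below control with galacturonic acid, at 33.5 and 47.3. Of 27 cell wall genes 1 was called lower, or 3.7%, which is near the share of all genes. It was HSP150, a secreted mannoprotein, at 476.4 to 697.5 in control and 171.9 and 44.7 with galactose (6.49-fold lower, limma adjusted p = 0.0263). The cell wall list had a median shift of -0.46 on galactose array 1 and -1.79 on array 2, and 16 of its 27 genes lay below all control arrays on both. Over all 5220 genes, 2494 lay above or below all control arrays on both galactose arrays. That number takes both directions together, so it is not a like measure for the 16 that lay below. In the list of the plasma membrane proton pump and ions 2 of 21 were lower (9.52%), PMA2 and HSP30.

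The markers of mating type a were present, though ASG7 read near the floor in control. Of 7 tested, 2 rose and 0 fell (28.6% higher against 4.75% of all genes), with a median difference of 0.95, and all 7 lay above the control mean on galactose array 1 and 5 on array 2. MFA2, an a-factor gene, read 632.2, 604.3 and 620.0 in control and 1711.8 and 1882.6 with galactose, 2.90-fold higher (limma adjusted p = 0.0197). ASG7, an a-specific gene, read 12.4, 17.8 and 11.8 in control and 46.9 and 44.5 with galactose, 3.30-fold higher (limma adjusted p = 0.0161). Both were also above control on the galacturonic acid arrays, at 1900.5 and 2218.0 for MFA2 and 39.1 and 41.6 for ASG7. The receptor gene STE2 read 335.2 on galactose array 1 and 36.9 on array 2, against 69.1 to 127.9 in control, and BAR1, the alpha-factor protease gene, 352.5 and 69.1 against 65.9 to 141.6, so the galactose arrays lay on opposite sides of the control mean for both. Of 3 tested markers of mating type alpha none was called, and MF(ALPHA)1 read 141.5 and 11.9 against 18.7 to 42.8. With galacturonic acid MF(ALPHA)1 read 912.4 and 844.7. The alpha marker SAG1 lay above every control array on both galactose arrays, at 40.4 and 60.3 against 31.4 to 33.0 (limma adjusted p = 0.231). In the mating response 2 of 15 rose (13.3%): GPA1, the G protein alpha subunit, at 48.4 to 58.2 in control and 141.1 and 138.5 with galactose (2.59-fold), and FUS1, a cell fusion gene, at 7.6 to 13.0 and 29.1 and 21.7 (2.03-fold). No gene of either list was called with array weights or with only the 5 control and galactose arrays. MFA2 and FUS1 were not called once the trend with coding length was removed, and STE2, BAR1 and MF(ALPHA)1 were named after their values were seen.

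In nitrogen catabolism 1 of 28 rose and 2 fell, shares of 3.57% and 7.14% near those of all genes (4.75% and 4.31%). GZF3, a GATA repressor, was 2.31-fold higher, and PUT4 and CAR2 (ornithine transaminase) were 11.4- and 6.37-fold lower. PUT4 and CAR2 were also below control with galacturonic acid, at 195.1 and 224.9 and at 167.4 and 166.6. Of 47 amino acid synthesis genes 1 fell (2.13%), ILV6, the regulatory subunit of acetolactate synthase, at 847.9 to 1642.9 in control and 234.5 and 69.9 with galactose (limma adjusted p = 0.0161). Of 30 sulfate assimilation and methionine genes MHT1, a homocysteine methyltransferase, rose 3.46-fold, and SAM3 and CBF1, a centromere and promoter binding factor, fell (3.33% and 6.67%). MHT1 read 55.2, 54.2 and 33.4 in control and 174.1 and 148.2 with galactose.

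Of 13 phosphate genes 1 was lower (7.69% against 4.31% of all genes), PHO4, the activator of that regulon, at 75.4, 79.8 and 95.8 in control and 3.0 and 0.2 with galactose, at least 6.94-fold lower (limma adjusted p = 0.00409). Of 21 iron genes 2 were lower (9.52%), MRS4 and FIT3. MRS4, a mitochondrial iron carrier, read 56.1 to 66.7 in control and 16.6 and 4.0 with galactose. FIT3, a cell wall protein for siderophore retention, read 317.5 to 675.2 in control and 165.2 and 44.8 with galactose. FIT3 was also below control with galacturonic acid, at 131.4 and 176.9, whereas MRS4 was not, at 76.7 and 86.2.

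Genes of protein synthesis showed few calls and unlike shifts on the 2 galactose arrays. Of 38 ribosome biogenesis genes 0 were called, and all 38 lay above the control mean on galactose array 1 (median shift 1.19) but 13 on array 2 (median shift -0.54). The gene of this list with the smallest p was UTP4, a processome subunit, at 11.6 to 24.2 in control and 49.7 and 33.1 with galactose (1.25, limma adjusted p = 0.0572). Of 21 translation initiation and elongation genes 1 was called lower (4.76% against 4.31% of all genes), HEF3, an elongation factor, by 3.41-fold. HEF3 was also below control with galacturonic acid, at 16.8 and 34.7. The list's median shift was 0.58 on array 1 and -1.09 on array 2. None of 47 large-subunit and 33 small-subunit ribosomal protein genes was called, with medians of 0.11 and 0.07. RPS14B was the least alike of the genes named here, at 485.0 and 15.9 with galactose against 1206.6 to 1589.0 in control (limma adjusted p = 0.0607). In the mitochondrial ribosome 2 of 43 genes were lower, a share of 4.65% near that of all genes, and the list's median was 0.29. They were RSM7 and MRPL4, lower by 3.29- and 3.27-fold.

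**Figure D5:**
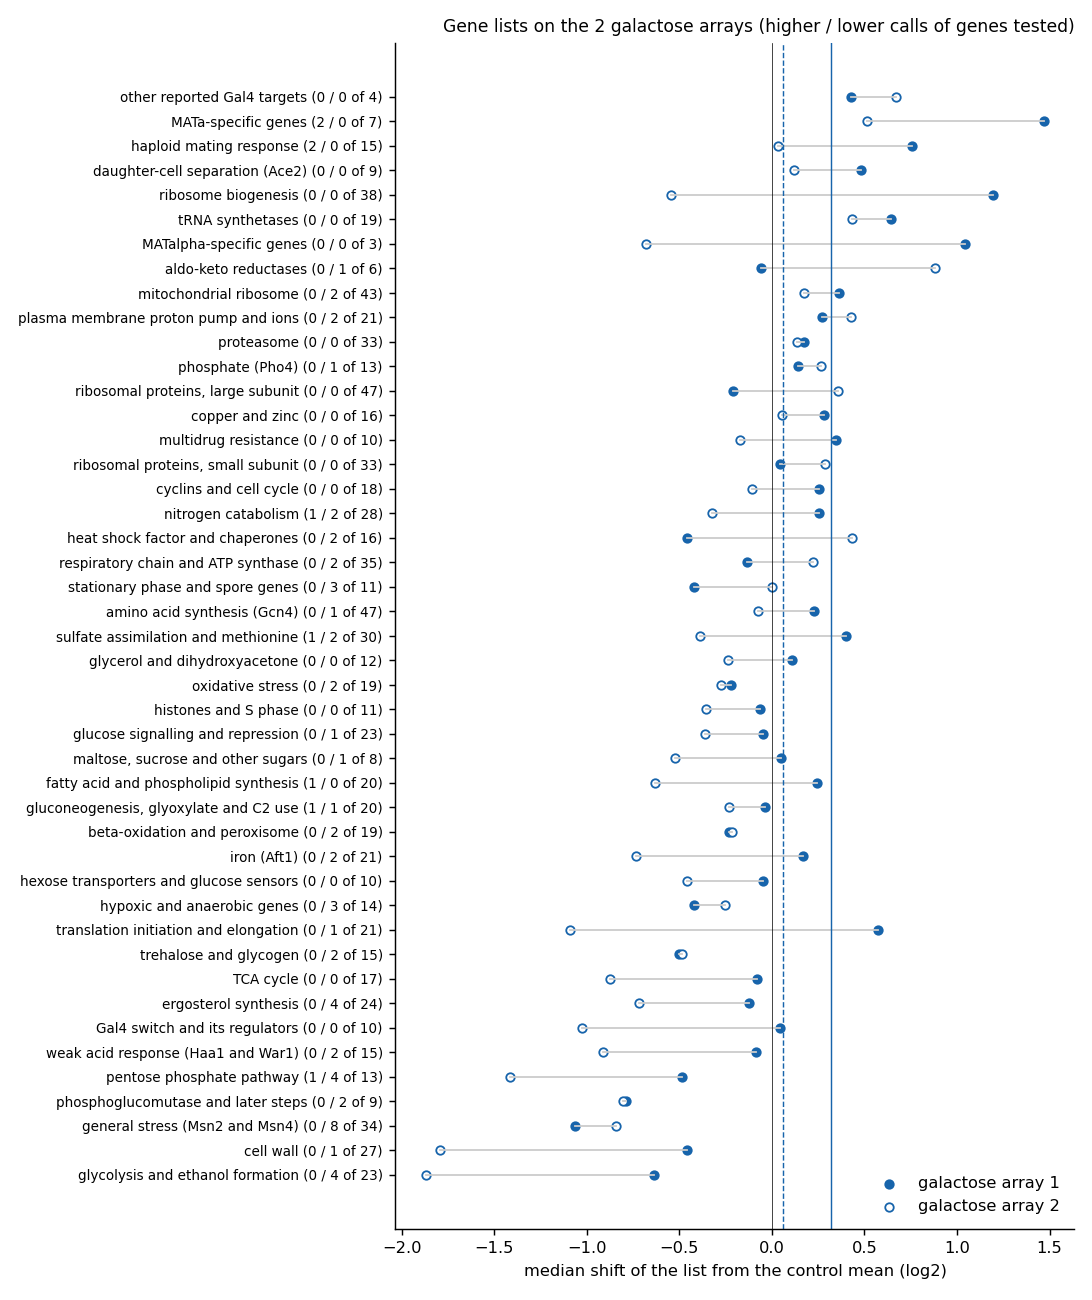
Median shift from the control mean (log2) of 45 gene lists on galactose array 1 (filled) and array 2 (open), with the number of genes called higher and lower of those tested beside each name. The solid and dashed vertical lines mark the medians of all genes on array 1 (0.32) and array 2 (0.06), and the list of galactose structural genes (4.94 and 5.33) is left out for scale.

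Of the 46 lists 16 held no called gene, with median differences of -0.52 (the Gal4 switch and its regulators) to 0.96 (the other reported Gal4 targets). The smallest p in the list belonged to DSE1 in daughter-cell separation, at 88.4 and 75.5 with galactose against 39.1 to 43.6 in control, to MBP1 among cyclins and cell cycle genes, at 99.8 and 154.1 against 31.1 to 65.2, and to RNR3 among histones and S phase genes, at or under the floor on both galactose arrays against 16.7 to 32.3. It belonged to PDR10 in multidrug resistance, to ZRT2 in copper and zinc, to GPD1 in glycerol metabolism, to PRE8 in the proteasome, to RPL21B among large-subunit ribosomal proteins and to GLN4 among tRNA synthetases. Limma's adjusted p in these 9 genes was 0.0522 to 0.101.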

How the data were processed

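Values were measured on 7 one-colour Affymetrix YG98S arrays. The deposited values are linear intensity values per probe set, and GCOS 1.2 was used, per the submitters' processing notes; how GCOS was set is not given in the sources used here. Each array had a trimmed mean near 150.1. The platform annotation pairs 6504 of the 9335 probe sets with 1 gene and 328 with several, another 60 are array controls, and it does not hold the remaining 2443. Names and coding lengths came from the RefSeq table of assembly R64.

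Intensities were raised to 12 and taken as log2. Limma 3.58.1 under R 4.3.3 fitted one mean per group over 7 arrays (lmFit; eBayes with a trend in intensity; residual degrees of freedom 4), with Benjamini-Hochberg adjustment over 5220 genes at a threshold of 0.05. A called gene also had both galactose arrays beyond all control arrays. A fold change against a group whose arrays all lie at or under the floor is a lower bound. So is one where only some arrays of the dimmer group lie there. This holds for the falls of YOR302W, PMA2, PUB1 and YFR018C and the rises of SNT309, HNT3, YML108W, ASG7 and FUS1. The number of arrays limits the precision. The fit was tested on simulated data.

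Genes were named by rule. The rule took the 12 largest rises and 12 largest falls among called genes and all members of the 4 galactose and hexose transporter lists. For each other list it took up to 3 called rises and 3 called falls, or the smallest p. Members, lists and tests were chosen with earlier results of these data known. Further genes were named to complete a count (PDC1, GND2, HMG1, RTN2, HSP26, PNC1) or, with CPA1, PMA1 and HSP12, after their values were seen. Alternatives changed scaling, floor, pseudocount, filter, probe sets, spread, threshold, coding length and arrays.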

Additional observations from a re-analysis of the deposited data

Results flagged for a closer look

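Probe sets that the annotation gives to several genes were not used in the comparison. Among 328 of them, 42 lay above and 82 below every control array on both galactose arrays. Of the 5220 genes tested, 2494 lay above or below every control array in the same way, so such separation is not particular to shared probe sets. Among the 328, 5 lay higher by over 1 log2 unit between the lower galactose and the highest control reading. A probe set shared by RPL40A and RPL40B, ubiquitin fused to a ribosomal protein, read 395.5 to 532.2 in control and 1266.5 and 1242.1 with galactose. One shared by RBH2 and 3 other genes read 17.5 to 28.6 in control and 84.3 and 161.5 with galactose. One shared by GSC2, a glucan synthase subunit, and IMO32 read 41.1 to 44.6 in control and 89.5 and 152.3 with galactose. One shared by IOC4 and 2 other genes read 16.6 to 32.1 in control and 65.3 and 173.3 with galactose. One shared by YHL009W-B and 2 other genes read 19.5 to 34.8 in control and 80.3 and 191.1 with galactose. Which of the genes gives each reading cannot be told apart.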

How the results depend on the processing

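Against control, 473 genes were called (248 higher, 225 lower), and the count was 220 (146, 74) with a floor of 50, of which 123 are among the 473, 178 (77, 101) with no filter on low genes, of which 162 are, 120 (34, 86) over genes above the median level, 16 (4, 12) with array weights, 38 (9, 29) with only the 5 control and galactose arrays, 25 (6, 19) at an adjusted p under 0.01, and 6 (4, 2) with array weights and no galacturonic acid arrays, an alternative chosen after seeing the data. Higher calls were 127 after quantile normalisation, 100 after 75th percentile scaling, 162 with a floor of 1 and 144 with the coding length trend removed, which gave 422 lower calls. Leaving out 1 array gave 21 to 2145 calls (4 to 1081 higher, 13 to 1064 lower), with the highest counts without galactose replicate 1. Against galacturonic acid, 686 calls became 268 with a floor of 50, 244 with no filter, 153 above the median level, 135 with array weights, 49 at an adjusted p under 0.01 and 4 to 2327 without 1 array. The cause was not tested. None of the 79 called genes in the text changed direction in these alternatives. Among uncalled ones, differences turned for MTH1 (-0.16 with quantile normalisation, -0.18 with 75th percentile scaling, -0.12 with the length trend removed) and HXT1 (-0.029 with a floor of 1). Without 1 array, differences crossed 0 for MTH1 (-0.36 to 0.37), FUR4 (-0.48 to 2.29), HXT1 (-0.15 to 0.52), HXT2 (-0.93 to 0.54), HXT4 (-1.42 to 2.22), RGT2 (-0.54 to 0.056), CYC8 (-0.94 to 0.16) and TUP1 (-1.84 to 0.12), with both ends of each range set by leaving out 1 galactose array. No paired analysis was possible because the labels give the control cultures no replicate numbers, and the numbers used here follow deposit order and only name an array. Readings under 12 have no order, which limits folds of dim genes.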

Other observations

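Of the 328 probe sets shared by several genes, 19 read lower with galactose than in control by over 1 log2 unit on both arrays. Among them were 5 probe sets of the subtelomeric helicase genes YRF1 and related frames, at 88.9 to 476.1 on the control arrays, 154.7 to 651.5 on the galacturonic acid arrays and 0.1 to 47.5 on the galactose arrays. All 24 probe sets of that family ranged from 0.1 to 3481.9 on the galactose arrays and from 0.3 to 1808.0 on the control arrays, so others of the family stayed bright. A set of 4 probe sets shared by YOR343W-B and its relatives read 176.8 to 1099.0 in control, 353.0 to 1762.5 with galacturonic acid and 4.2 to 478.9 with galactose. All 33 probe sets of that group ranged from 0.7 to 3636.5 in control and from 0.3 to 1929.8 with galactose. The 4 such probe sets of the PAU mannoprotein family read 100.8 to 848.9 in control and 41.8 to 77.5 with galactose, and 67.6 to 218.8 with galacturonic acid.

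One probe set given to both GLK1 (glucokinase) and the overlapping frame YCL042W read 1813.2, 1160.5 and 1065.3 in control and 0.2 and 0.4 with galactose. The probe set of GLK1 alone read 3053.3, 1632.7 and 1574.7 in control and 920.8 and 109.2 with galactose, also below every control array but above the floor.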
